A study of Mus musculus with 8 samples.

Results

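Late cultures of differentiating white fat cells that lacked Irf3 were set against wildtype cultures of the same age. The comparison covers 4 of the 8 arrays of the study, namely the Irf3-knockout arrays of days 7 and 9 and the wildtype arrays of the same days, chosen by genotype and day from the labels. Preadipocytes had been isolated from mouse white adipose tissue and cultured in high-glucose medium with insulin and ascorbate, with no other treatment, while they became fat cells. Total RNA was labelled with biotin and read on Illumina bead arrays, 1 array for each genotype and day. A day therefore has no replicate of its own, and the pair of daily differences between knockout and wildtype served as the repeats. The labels do not say whether day 7 and day 9 of a genotype shared an animal or a culture. P-values and SEs therefore rest on the spread between daily differences, which may be technical. In the fit, the spread of each gene was moderated towards that of all genes. It had 1 residual degree of freedom of its own and 8.20 prior ones. The strain, the age and sex of the animals, the slide of each array and the part of Irf3 that was deleted are likewise not in the sources used here.

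Irf3 is a transcription factor that rests in the cytoplasm until sensors of foreign nucleic acids or of bacterial products activate the kinases that phosphorylate it. It then enters the nucleus and drives interferon genes and a set of interferon-stimulated genes, many of which carry interferon-stimulated response elements in their promoters. Interferon made in this way acts back on the cells through its receptor and factors that include Stat2 and Irf9, which raise the same and further genes. A maturing white fat cell turns on Pparg and Cebpa, and with them the enzymes that make, store and release triglyceride. Primary cultures from the stroma of fat can also hold macrophages and other cells.

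The mean raw intensity of the 4 arrays ran from 891 to 1026, and 49.98% to 52.2% of the 25697 probes had a detection p-value under 0.05, the threshold used here for a signal above background. Values below are log2 intensities after background correction and quantile normalization of the 4 arrays, and a difference is knockout minus wildtype, so that 1 is a 2-fold difference. Across genes, which are not independent replicates, the Pearson correlation was 0.983 between the knockout arrays and 0.985 between the wildtype arrays, against 0.948 to 0.961 between arrays of different genotype. The labelled cell type was checked against defining markers. Of 9 fat cell markers on the array, all 9 were above background on each knockout array and 8 on each wildtype array, with a summed linear signal of 58601 and 49920 in knockout, against 27941 and 31032 in wildtype. The marker not above background in wildtype was Fabp4, whose probe read low on all 4 arrays. Of 10 macrophage markers, 10 were above background on each knockout array and 9 on each wildtype array, with sums of 59106 and 76988 in knockout, against 22868 and 37381 in wildtype. The preadipocyte markers summed to 27918 and 25873 in knockout and to 31123 and 32015 in wildtype. The lymphocyte markers Cd3e, Cd3g and Cd79a and the mesothelial markers Msln, Upk3b, Lrrn4 and Krt19 were not above background on any of the 4 arrays.

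Transcript from the Irf3 gene was still read in the knockout cultures. The probe used of its 3 gave 10.43 and 11.15 in knockout on days 7 and 9, against 11.43 and 11.41 in wildtype. The knockout arrays were lower on both days, and the difference of -0.63 ± 0.24 (moderated SE, 2 days) had an adjusted p of 0.114 in limma, above the threshold of 0.05. The other probes differed by -0.81 and -0.65 on day 7 and by -0.09 and -0.29 on day 9. Since the deleted part is unknown, these probes do not check the genotype labels. Bcl2l12, which lies next to Irf3 and encodes a Bcl2-like protein, gave 5.11 and 5.80 in knockout and 7.33 and 6.61 in wildtype. It was above background on 1 of the 2 knockout arrays and on both wildtype arrays, and fell by 1.51 on the log2 scale (SE 0.31, adjusted p = 0.0105). Another Bcl2l12 probe, above background on only 1 array and so left out, differed by -0.07 on day 7 and 0.86 on day 9. The call of Bcl2l12 was lost with day 9 alone, where its difference was -0.79 (adjusted p = 0.551). Of the 20 tested genes on each side of Irf3, 4 of the 40 were higher and 6 were lower, where 7.67% of all genes tested were higher and 6.80% lower. Plekha4, which encodes a lipid-binding adaptor and is the farthest of the called genes on its side of Irf3, gave 7.64 and 7.70 in knockout and 10.05 and 10.07 in wildtype. It was lower on both days, with a difference of -2.39 ± 0.20, and it is named here after its value was seen.

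Across the array, calls in both directions were close in number. Of 9251 genes tested, 1339 (14.5%) passed the test, which asked for a limma adjusted p under 0.05 and the same sign on both days. Of these, 710 (7.67%) were higher and 629 (6.80%) were lower in knockout, and only genes that passed are said below to have risen or fallen. At an unadjusted p under 0.05 there were 2533, and 2978 genes (32.2%) had opposite signs on the days. At least 2-fold apart on both days were 341 genes (3.69%) higher and 223 genes (2.41%) lower in knockout. The median difference of all genes was -0.04 on day 7 and 0.0012 on day 9. Further probes of called genes had the sign of the call on both days in 341 of 387 cases. The plot of the daily differences shows the called genes along the diagonal, with Arg1 far from it. With 1 day alone, in a fit that took the spread from days 3 and 5, limma called 120 genes higher and 68 lower on day 9, and 149 higher and 93 lower on day 7. The deposited processed values gave 0 calls, with 1934 genes at an unadjusted p under 0.05; 334 of the tested genes stood at their floor on all 4 arrays, and with all genes at the floor left out there were 507 higher and 340 lower.

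**Figure D1:**
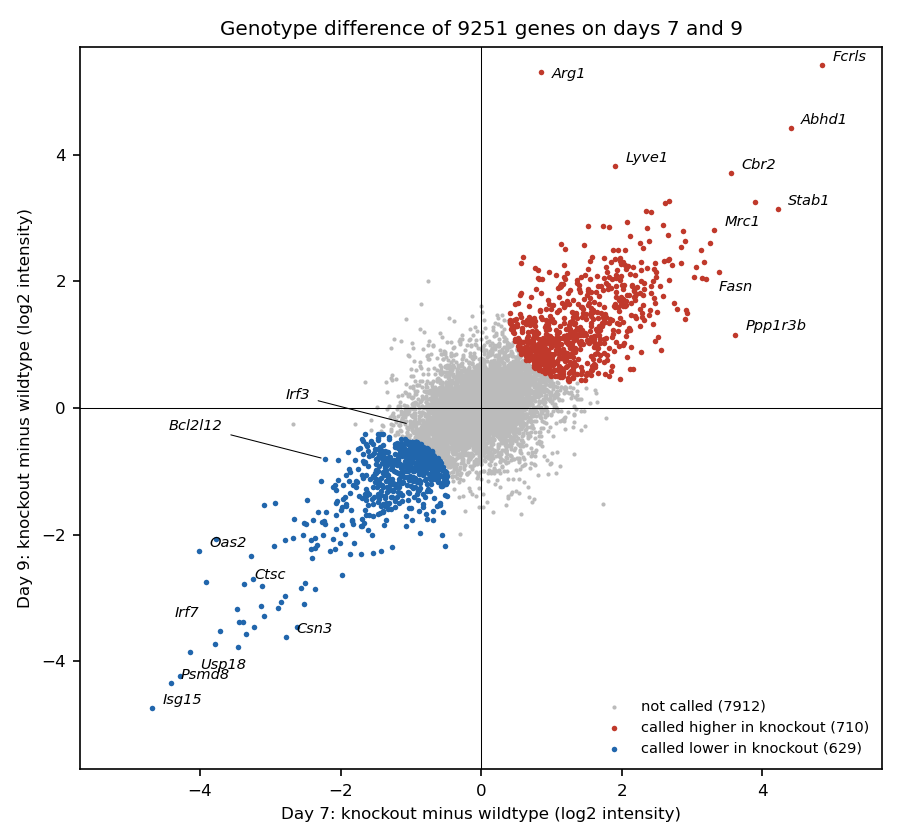
Each point is 1 of 9251 genes, with its log2 difference, knockout minus wildtype, on day 7 (x axis) and on day 9 (y axis). The 710 genes called higher in knockout (red) and the 629 called lower (blue) have the same sign on both days, Isg15 and Fcrls lie at opposite ends, and Arg1 has 0.86 on day 7 and 5.31 on day 9.

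In all, 37 gene lists were examined. Each count of called members below is to be read beside 7.67% of all genes higher and 6.80% lower. The lists called lower most often were the type I interferon-stimulated genes, the interferon-inducible GTPases and the mesothelial and epithelial genes. The lists called higher most often were the pan-leukocyte genes, the macrophage markers, fatty acid and triglyceride synthesis and the mature adipocyte markers. A measured member is one that was above background on at least 2 of the 4 arrays. A member that passed this filter only through the genotype where it was high had to differ, and the lists were written with earlier results of these data known, so the counts describe the lists and lend them no further support.

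**Figure D2:**
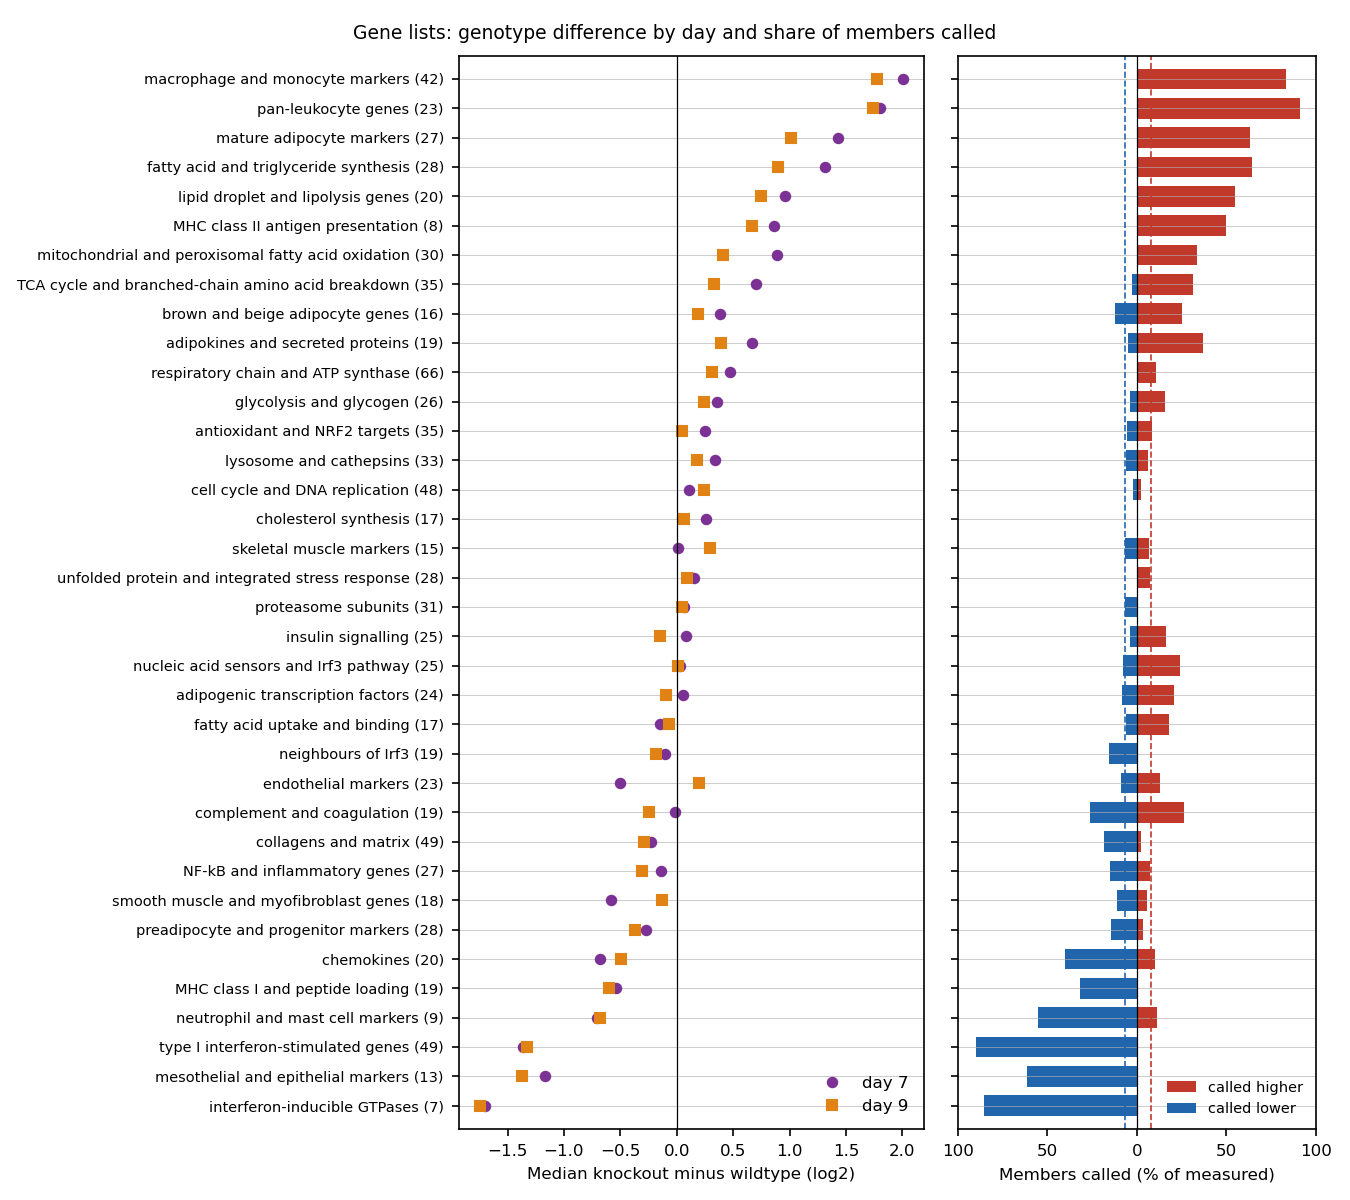
Left, the median log2 difference, knockout minus wildtype, of each gene list with at least 5 measured members (number in brackets) on day 7 (circles) and day 9 (squares). Right, the share of measured members called higher (red, to the right) or lower (blue, to the left), with dashed lines at the share of all genes, 7.67% and 6.80%. Macrophage and leukocyte lists are at the top, and the interferon-stimulated, the GTPase and the mixed mesothelial and epithelial lists at the bottom.

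Interferon-stimulated genes were lower in knockout with few exceptions. Of 70 listed, 49 were measured, and 44 of these (89.8%, against 6.80% of all genes) fell and 0 rose. The median difference was -1.37 on day 7 and -1.33 on day 9. With each gene averaged over days 7 and 9 the median was -1.24. The like median over days 3 and 5, with all 8 arrays normalized together, was -0.92. Isg15, a ubiquitin-like protein that interferon induces and that is attached to other proteins, gave 8.03 and 7.91 in knockout, against 12.71 and 12.65 in wildtype. This was a 26.2-fold lower intensity in knockout, far outside the spread between days (difference -4.71 ± 0.20, adjusted p = 7.70e-06). Usp18, the protease that removes Isg15 and damps interferon receptor signalling, gave 8.17 and 8.33 in knockout and 12.31 and 12.19 in wildtype (adjusted p = 1.44e-05). Ifit3, a binding partner of antiviral RNA-binding Ifit proteins, gave 9.74 and 9.83 in knockout and 13.53 and 13.55 in wildtype, and all 3 of its probes were lower on both days, with differences between -4.20 and -3.72. Irf7, the factor that amplifies interferon production, gave 6.46 and 6.42 in knockout and 10.17 and 9.95 in wildtype (12.3-fold lower, adjusted p = 2.08e-05). In each of these genes the knockout arrays lay close together and far below the wildtype arrays.

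Effector genes of the antiviral state behaved in the same way. Mx2, a dynamin-like GTPase that blocks viruses, was not above background in knockout and gave 8.89 and 8.81 in wildtype, so that it was at least 9.40-fold lower. Rsad2, which encodes viperin, an enzyme that makes a chain-terminating nucleotide, gave 6.64 and 7.04 in knockout and 10.56 and 9.78 in wildtype (adjusted p = 0.000135). Its neighbour and partner Cmpk2, a nucleotide kinase, gave 6.11 and 6.67 in knockout and 9.39 and 9.01 in wildtype. Among the oligoadenylate synthetases, which activate RNase L, Oas2 gave 6.60 and 8.44 in knockout, with the higher value on day 9, and 10.62 and 10.70 in wildtype. Oas1g gave 8.80 and 8.90 in knockout and 11.13 and 11.06 in wildtype, with the caveat that the Oas1 genes are near-identical copies that a probe may not separate. Parts of the receptor pathway itself were lower by smaller amounts. Stat2 gave 8.52 and 8.56 in knockout and 9.99 and 10.24 in wildtype (2.97-fold lower), and Irf9 gave 9.71 and 9.90 in knockout and 10.83 and 11.09 in wildtype (2.23-fold lower). Apol9b, an apolipoprotein L gene, was not above background in knockout and gave 8.43 and 8.71 in wildtype, at least 7.76-fold lower. Taken alone, day 9 gave 14 of the 49 as lower and day 7 gave 16. In such mixed cultures a lower share of responding cells and less RNA per cell cannot be told apart. The macrophage marker sums differed in the opposite direction, higher in knockout, and their part in the interferon-stimulated genes was not tested.

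The promoters of 4 of the interferon-stimulated genes are shown because they hold the core of the interferon-stimulated response element, the letters GAAANNGAAA on either strand, in capitals (TTTCNNTTTC where it lies on the other strand). Each is the RefSeq window of 300 bases, from 250 before to 50 after the gene's start, in build GRCm38.p6 and read 5′ to 3′ on the gene's strand. Isg15 is at chr4:156200769-156201068 on the minus strand, Ifit3 at chr19:34583279-34583578 on the plus strand, Rsad2 at chr12:26456403-26456702 on the minus strand and Oas1g at chr5:120887564-120887863 on the minus strand.
Isg15: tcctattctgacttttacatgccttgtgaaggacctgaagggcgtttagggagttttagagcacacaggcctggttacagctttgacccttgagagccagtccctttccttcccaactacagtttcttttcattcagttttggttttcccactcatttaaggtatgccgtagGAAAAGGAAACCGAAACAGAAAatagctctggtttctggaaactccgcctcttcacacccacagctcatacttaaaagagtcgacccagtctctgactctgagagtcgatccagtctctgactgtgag
Ifit3: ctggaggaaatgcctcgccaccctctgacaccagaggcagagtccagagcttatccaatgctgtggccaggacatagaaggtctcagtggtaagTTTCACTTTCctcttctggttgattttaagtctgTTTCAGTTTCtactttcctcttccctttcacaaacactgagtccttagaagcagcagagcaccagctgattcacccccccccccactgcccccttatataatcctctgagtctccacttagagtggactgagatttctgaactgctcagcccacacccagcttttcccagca
Rsad2: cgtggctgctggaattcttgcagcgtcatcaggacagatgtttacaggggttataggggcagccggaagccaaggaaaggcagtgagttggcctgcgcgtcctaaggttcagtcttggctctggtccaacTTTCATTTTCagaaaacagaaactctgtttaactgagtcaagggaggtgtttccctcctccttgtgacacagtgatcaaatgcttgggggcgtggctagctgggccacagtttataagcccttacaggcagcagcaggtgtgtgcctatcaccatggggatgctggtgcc
Oas1g: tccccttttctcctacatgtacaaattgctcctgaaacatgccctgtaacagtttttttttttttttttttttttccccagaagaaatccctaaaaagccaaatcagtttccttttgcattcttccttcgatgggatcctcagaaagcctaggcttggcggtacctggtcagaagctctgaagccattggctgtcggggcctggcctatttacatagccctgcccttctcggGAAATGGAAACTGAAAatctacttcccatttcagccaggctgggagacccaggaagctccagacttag
In Isg15 the 3 matches overlap into 1 run that begins 78 bases before the start, in Oas1g 2 matches overlap into a run that begins 18 bases before it, in Ifit3 2 matches stand apart, and in Rsad2 there is 1.

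Of the 45 windows found for 35 members of the interferon-stimulated list, 14 (31.1%) held the core. Of all 32851 windows, 3.44% held it, and over the 9701 windows of the tested genes 3.06%. Genes called lower were also taken without the interferon-stimulated, GTPase, MHC class I and chemokine lists, and 30 of their 593 windows (5.06%) held it. Among genes called higher 17 of 712 windows (2.39%) did. These shares are descriptions with no test, a match is not a site of binding, and the absence of a match says only that these letters are not in the window. The members that fell with a window but no match included Irf7, Oasl2 and Cmpk2.

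Of 16 interferon-inducible GTPases, which attack the vacuoles of intracellular microbes, 7 were measured and 6 of the 7 fell, with medians of -1.70 and -1.75 on days 7 and 9. Gbp3 gave 9.75 and 9.71 in knockout and 12.31 and 12.55 in wildtype (6.51-fold lower), and Igtp gave 9.07 and 9.20 in knockout and 11.18 and 11.28 in wildtype (4.26-fold lower). For MHC class I and peptide loading, 25 genes were listed, 19 were measured, 6 fell and 0 rose. The 6 included Tap1, a subunit of the peptide transporter (7.32 and 7.08 in knockout, 8.64 and 8.68 in wildtype), the immunoproteasome subunits Psmb8 and Psmb9, the nonclassical H2-T23 and Nlrc5, the activator of class I genes. The class I light chain B2m did not pass the test, at 14.53 and 14.59 in knockout and 14.73 and 14.36 in wildtype, values that overlap. They lay near the highest values of the listed genes, and whether a difference can be read there was not tested. No class I gene was called by limma on either day alone.

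Among nucleic acid sensors and the Irf3 pathway, 25 of 33 listed genes were measured, 6 rose and 2 fell. Over all genes, 7.67% rose and 6.80% fell. Irf8, a lineage factor of macrophages and dendritic cells, gave 7.74 and 8.29 in knockout, against 5.69 and 6.02 in wildtype (4.45-fold higher). Tlr7, the receptor for single-stranded RNA, gave 9.31 and 9.94 in knockout and 7.19 and 7.82 in wildtype (4.34-fold higher), and Irf5, a factor downstream of Toll-like receptors, gave 8.56 and 9.44 in knockout and 6.75 and 7.37 in wildtype (3.84-fold higher). Ticam2, Cd14 and Tlr2 were the others that rose. Trim56, a ubiquitin ligase, fell by 0.78, and Zbp1, a sensor of left-handed nucleic acid that interferon induces, fell to 6.36 and 7.13 in knockout, against 7.73 and 8.08 in wildtype. The kinase Tbk1 and the adaptor Mavs, which act just above Irf3, did not pass the test, with differences of 0.10 ± 0.22 and 0.32 ± 0.21. The macrophage markers moved with the genes of this list that rose, and their part in these differences was not tested.

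Among chemokines and inflammatory genes, more fell than rose. Of 20 measured chemokines out of 28 listed, 8 fell and 2 rose, with medians of -0.68 and -0.50 on days 7 and 9. Over all genes, 6.80% fell and 7.67% rose. Ccl5, which attracts T cells and monocytes, was not above background in knockout and gave 8.36 and 8.70 in wildtype, at least 7.52-fold lower. Cxcl9, which attracts activated T cells, gave 7.97 and 7.43 in knockout and 11.06 and 10.70 in wildtype (9.07-fold lower, adjusted p = 3.39e-05). Cxcl10, a related ligand of the same receptor, was not above background in knockout and was at least 3.30-fold lower. Cxcl5, Cxcl1, Cxcl13, Ccl11 and Ccl19 also fell, by 1.38 to 1.70 on the log2 scale. Ccl6 rose instead, to 11.06 and 10.68 in knockout, against 9.06 and 8.59 in wildtype, and Ccl9 rose by 0.87 ± 0.20. Both of those that rose are made by myeloid cells. The monocyte attractant Ccl2 gave 10.94 and 9.85 in knockout and 10.59 and 10.23 in wildtype, with overlapping values.

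Of 27 measured inflammatory genes out of 36 listed, 4 fell and 2 rose. The share that rose was near the 7.67% of all genes, and 6.80% of all genes fell. Socs3, an inhibitor of cytokine signalling, fell by 1.23 on the log2 scale, and Saa3, an acute-phase protein of fat cells and macrophages, fell to 13.68 and 13.45 in knockout, against 14.62 and 14.70 in wildtype. Il1rn and Csf1, which encode the interleukin-1 receptor antagonist and the growth factor of macrophages, fell by 0.94 and 0.95. The genes that rose were Il10, an anti-inflammatory cytokine (6.37 and 7.54 in knockout and not above background in wildtype, at least 2.48-fold higher), and Tnf (7.003 and 7.07 in knockout, 5.79 and 6.03 in wildtype). Il6 gave 6.03 and 6.37 in knockout and 6.15 and 6.13 in wildtype and did not pass the test. Complement and coagulation genes split evenly, with 5 higher and 5 lower of 19 measured. The 3 C1q chains, F13a1 and the plasminogen activator Plau rose, while C2, Cfb and C1s1, proteases of the complement cascade, fell with Pros1 and Tfpi, which restrain clotting. C2 gave 12.34 and 12.29 in knockout and 13.51 and 13.45 in wildtype.

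Macrophage genes were higher in knockout as a block. Of 53 listed markers 42 were measured, and 35 (83.3%, against 7.67% of all genes) rose and 0 fell, with medians of 2.004 and 1.77 on days 7 and 9. Stab1, a scavenger receptor, gave 11.66 and 11.72 in knockout, against 7.44 and 8.59 in wildtype (12.8-fold higher, adjusted p = 7.19e-05). Cbr2, a carbonyl reductase of resident macrophages, gave 11.36 and 12.09 in knockout and 7.81 and 8.38 in wildtype (12.4-fold higher), and Mrc1, the mannose receptor, gave 13.72 and 13.91 in knockout and 10.41 and 11.10 in wildtype (8.33-fold higher). In these genes the lowest knockout array lay above the highest wildtype array, although wildtype was itself higher on day 9 than on day 7. Adgre1, a surface antigen of mature macrophages, gave 12.42 and 13.17 in knockout and 9.37 and 10.94 in wildtype, and Cd163, the haptoglobin-haemoglobin receptor, gave 8.52 and 9.33 in knockout and 6.17 and 6.23 in wildtype. Fcgr2b, the inhibitory Fc receptor, and Lilra6, an immunoglobulin-like receptor, were 7.12-fold and 11.9-fold higher. Lyz2, which encodes lysozyme, did not follow, with 14.55 and 14.69 in knockout and 14.11 and 14.73 in wildtype, values that overlap. They lay near the highest values of the listed genes, such as 14.94 for Acta2 in knockout on day 9. Whether a difference can be read at this level was not tested. Of the 42, limma called 19 higher on day 9 alone and 26 on day 7 alone.

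Further genes of the resident macrophage kind stood among the 15 with the largest rise. Fcrls, a scavenger receptor-like protein, was the highest of all, with 10.01 and 11.34 in knockout and 5.16 and 5.93 in wildtype, where only the day 9 array was above background (difference 5.13 ± 0.22, adjusted p = 7.70e-06). Lyve1, a hyaluronan receptor of lymphatic vessels and of some tissue macrophages, gave 8.83 and 10.45 in knockout and 6.92 and 6.63 in wildtype, higher on day 9 than on day 7 in knockout. F13a1, the A subunit of clotting factor XIII, gave 12.75 and 14.07 in knockout and 10.14 and 10.82 in wildtype. Fcna, which encodes ficolin A, was 7.82-fold higher and Pld4, an endolysosomal nuclease, 7.62-fold higher, and the call of Pld4 was lost with day 9 alone (difference 2.63, adjusted p = 0.0688). Gmfg, an actin regulator of blood cells, was 6.81-fold higher by the probe used, while 1 of its other probes was lower on both days. Siglec1, a sialic acid receptor that marks tissue macrophages, named here after its value was seen, gave 9.90 and 10.72 in knockout and 7.07 and 8.18 in wildtype (6.45-fold higher).

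Arg1 stood apart from the rest. This enzyme, which splits arginine and is high in alternatively activated macrophages, gave 6.74 and 11.70 in knockout and 5.88 and 6.39 in wildtype. A single array, knockout day 9, carried the difference: it was 5.31 on day 9 and 0.86 on day 7. The call (adjusted p = 0.0252) was lost with day 7 alone, where the difference was 0.84 (adjusted p = 0.485), and adjusted p was 0.268 without the day term, 0.120 with the spread from all 8 arrays, 0.0926 without the detection filter and 0.0743 with all probes averaged.

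Genes of leukocytes in general rose like the macrophage markers, whereas mast cell genes fell. Of 25 pan-leukocyte genes 23 were measured, and 21 of the 23 rose and 0 fell. Plek, the platelet and leukocyte protein pleckstrin, gave 9.49 and 10.16 in knockout and 7.44 and 7.97 in wildtype, Rac2, a small GTPase, gave 8.82 and 9.32 in knockout and 6.80 and 7.44 in wildtype, and Cd53, a tetraspanin, gave 10.33 and 10.84 in knockout and 7.97 and 8.63 in wildtype. Ptprc, which encodes CD45, gave 6.07 and 6.36 in knockout and was not above background in wildtype, at least 1.49-fold higher. For MHC class II antigen presentation 8 of 14 listed genes were measured, and 4 rose: Ctss, Cd74, H2-Ab1 and Cd86. Ctss, the cathepsin that frees class II molecules, gave 10.11 and 10.53 in knockout and 8.01 and 9.27 in wildtype. Only 3 of 26 lymphocyte markers were measured. Among 9 measured neutrophil and mast cell genes of 20 listed, 5 fell and 1 rose. Those that fell were the mast cell genes Cma1, Mcpt4, Tpsb2, Hdc and Fcer1a, and Cma1, which encodes chymase, gave 7.99 and 7.08 in knockout and 8.86 and 9.06 in wildtype. The calcium-binding S100a8 rose to 8.88 and 8.90 in knockout, against 6.83 and 7.30 in wildtype.

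**Figure D3:**
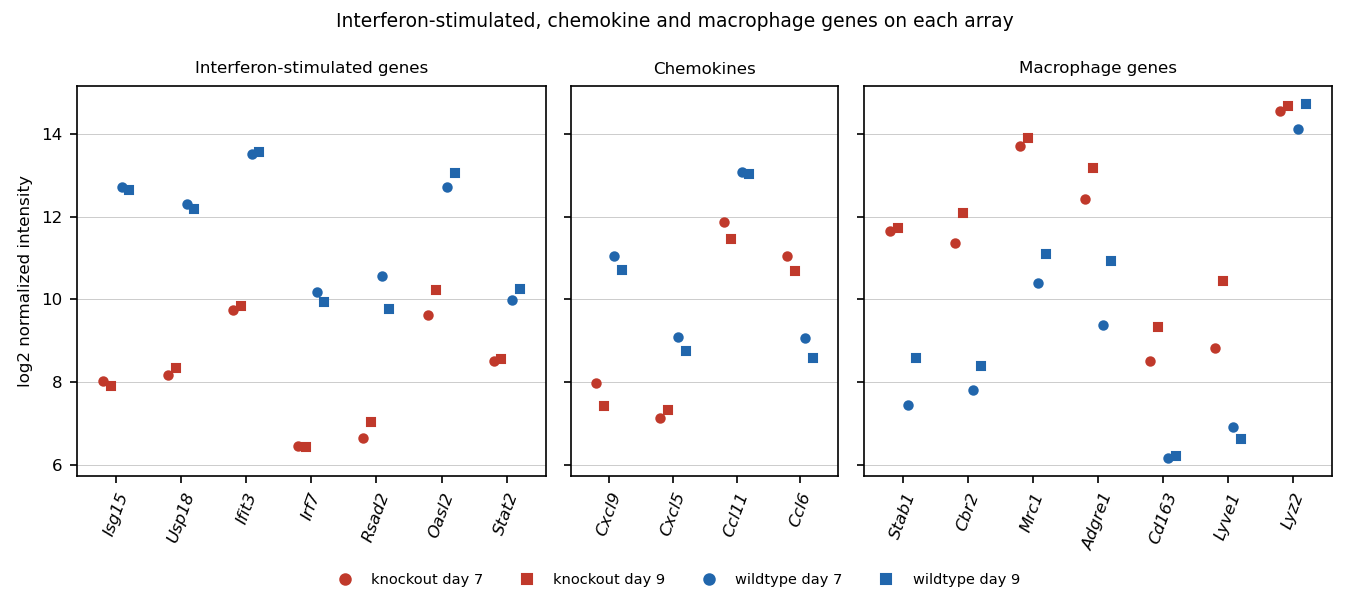
The y axis gives the log2 normalized intensity of 7 interferon-stimulated genes, 4 chemokines and 7 macrophage genes on the knockout (red, left) and wildtype (blue, right) arrays of day 7 (circles) and day 9 (squares). Isg15, Usp18 and Ifit3 lie far lower in knockout, Stab1, Cbr2 and Mrc1 far higher, Ccl6 is the only higher chemokine shown, and Lyz2 overlaps.

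Several genes with large differences belonged to neither group. Abhd1, a hydrolase-like gene, gave 10.57 and 10.20 in knockout and 6.17 and 5.78 in wildtype (21.3-fold higher), and all 3 of its probes were higher on both days, with differences between 3.88 and 5.18. Psmd8, a subunit of the proteasome's regulatory particle, gave 7.82 and 7.85 in knockout and 12.24 and 12.18 in wildtype (20.8-fold lower, adjusted p = 7.70e-06). Of 34 listed proteasome genes 31 were measured, and the only other call among them was Psmb5, which fell by 1.42. The share of this list that fell was near the 6.80% of all genes. Plk1, a kinase of mitosis, was not above background in knockout and gave 9.72 and 9.18 in wildtype, at least 14.3-fold lower, while the 47 other measured genes of the cell cycle list held 1 call, Ccnd1, which rose by 1.05 ± 0.20. Psmd8 and Plk1 were each read by 1 probe that passed the filter. The difference of Psmd8 was -4.04 and -4.21 on days 3 and 5, and that of Plk1 was -5.40 and -4.82, so both were as far apart before the late days.

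Others of this kind were also not above background in knockout. Lars2, the mitochondrial leucyl-tRNA synthetase, gave 8.86 and 8.98 in wildtype and was at least 9.88-fold lower in knockout. Prkag2, a regulatory subunit of the AMP-activated kinase, gave 8.53 and 8.52 in wildtype and was at least 7.50-fold lower, and Pou6f1, a homeodomain factor, gave 7.93 and 7.92 in wildtype and was at least 4.95-fold lower. In each, the wildtype arrays lay close together on the 2 days. Csn3, which encodes a casein, gave 5.99 and 5.03 in knockout and 8.76 and 8.65 in wildtype. Atp10d, a lipid flippase, was 7.03-fold higher at 9.50 and 9.57 in knockout and 6.37 and 7.08 in wildtype. Mup20, a major urinary protein from a family of near-identical genes that a probe may not separate, gave 10.26 and 10.46 in knockout and 6.88 and 8.31 in wildtype, and its call was lost with day 9 alone (difference 2.16, adjusted p = 0.216). Ctsc, a lysosomal protease, gave 7.55 and 8.57 in knockout and 10.92 and 11.34 in wildtype (8.41-fold lower). Of 33 measured lysosomal genes 2 rose and 2 fell in all, shares near the 7.67% and 6.80% of all genes. Glb1, the lysosomal galactosidase, was the other that fell.

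Most measured markers of mature fat cells rose. Of 34 mature adipocyte markers 27 were measured, and 17 (63.0%, against 7.67% of all genes) rose and 0 fell, with medians of 1.43 on day 7 and 1.01 on day 9. Cidec, a protein of the lipid droplet surface, gave 12.14 and 12.12 in knockout, against 9.83 and 10.50 in wildtype (3.90-fold higher, adjusted p = 0.000580). Slc2a4, the insulin-responsive glucose transporter GLUT4, gave 10.45 and 9.83 in knockout and 7.56 and 8.42 in wildtype (4.44-fold higher), and Fabp5, a fatty acid-binding protein, gave 11.20 and 11.17 in knockout and 9.07 and 9.51 in wildtype (3.72-fold higher). For all 3, knockout and wildtype arrays did not overlap. Thrsp, which promotes lipid synthesis, Adig, a small protein of adipocyte membranes, and Acvr1c, a receptor of the activin family, rose by 2.20, 1.75 and 1.73 on the log2 scale. Lep, which encodes leptin, gave 9.95 and 10.16 in knockout and 8.81 and 9.15 in wildtype (2.11-fold higher). Some defining markers did not pass: Adipoq, which encodes adiponectin, gave 14.44 and 14.47 in knockout and 13.91 and 14.07 in wildtype (adjusted p = 0.179), and Lpl, lipoprotein lipase, gave 14.45 and 14.58 in knockout and 14.66 and 14.64 in wildtype. Both markers read near the highest values of the listed genes, and whether this level hides a difference was not tested. The probe of Fabp4, a main lipid carrier of fat cells, gave 6.83 and 6.08 in knockout and was not above background in wildtype, at least 1.76-fold higher. This was its only probe that passed the filter, it read low on all 4 arrays, and it counts among the 17. Whether it reports the transcript well was not tested. With 1 day alone 0 of the 27 were called on day 9 and 3 on day 7, and with the spread taken from all 8 arrays 3 were called.

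Of 19 measured secreted proteins of fat cells (26 listed), 7 rose and 1 fell, and these counts were 8 and 4 without background correction. Orm1 and Orm2, acute-phase glycoproteins, were 3.62-fold and 4.70-fold higher, and Rbp4, the retinol carrier, gave 10.41 and 9.66 in knockout and 7.63 and 8.09 in wildtype. Apoe and Apoc1, apolipoproteins that macrophages also make, were 3.25-fold and 4.05-fold higher. Apod, a lipocalin, fell to 10.63 and 10.60 in knockout, against 12.18 and 12.03 in wildtype.

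Most measured enzymes that make fatty acids and triglyceride rose. Of 33 listed, 28 were measured, 18 rose and 0 fell, with medians of 1.32 and 0.90 on days 7 and 9. Fasn, fatty acid synthase, gave 10.24 and 9.88 in knockout, against 7.04 and 7.84 in wildtype (6.14-fold higher, adjusted p = 0.000354). Elovl6, which lengthens the product, gave 12.55 and 12.56 in knockout and 10.63 and 10.80 in wildtype (3.58-fold higher), and Acaca, acetyl-CoA carboxylase, gave 14.07 and 14.05 in knockout and 12.69 and 12.80 in wildtype (2.48-fold higher). The genotypes did not overlap in any of the 3, and the knockout arrays of Elovl6 lay on top of each other. Upstream, Slc25a1, the mitochondrial citrate carrier, was 3.35-fold and Pcx, pyruvate carboxylase, 3.50-fold higher. On the glyceride side, Dgat2, which forms triglyceride, gave 14.38 and 14.24 in knockout and 12.95 and 13.01 in wildtype, and Lpin1, a phosphatidate phosphatase, was 2.88-fold higher. Scd1, the desaturase, gave 14.73 and 14.30 in knockout and 14.42 and 14.47 in wildtype, with overlap and no call. It too read near the highest values, and whether this level hides a difference was not tested. Day 9 alone gave 1 call among the 28 and day 7 alone gave 4. The direct repeat AGGNCANAGGNCA that Pparg and its partner bind, searched on both strands, was found in 1 of 27 promoter windows of these genes and in 0.381% of all windows. It was in 0 of 24 windows of mature adipocyte markers and 0 of 32 of lipid droplet and lipolysis genes. Genes called higher held it in 3 of 712 windows (0.421%) and genes called lower in 2 of 650 (0.308%). These shares were not tested.

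Genes of the lipid droplet and of fat breakdown were also higher, with 11 of 20 measured (30 listed) risen and 0 fallen. Pnpla2, the lipase that takes the first fatty acid from triglyceride, gave 14.20 and 13.69 in knockout and 12.68 and 12.64 in wildtype. Lipe, the lipase of the next step, gave 10.01 and 9.06 in knockout and 7.50 and 7.94 in wildtype. Hcar1, the lactate receptor that restrains lipolysis, rose 2.52-fold, and Aqp7, the glycerol channel, 2.61-fold. Plin1, which coats droplets, gave 9.20 and 8.46 in knockout and 7.997 and 7.69 in wildtype (1.99-fold higher). Of 17 measured genes of fatty acid uptake and binding (22 listed), 3 rose and 1 fell, with medians of -0.15 and -0.06. Slc27a1, a fatty acid transporter, rose 2.55-fold, and Acsl6, an acyl-CoA synthetase read only in wildtype, fell. The marker sums of macrophages and of fat cells were both higher in knockout, and the part that either cell type has in these lipid genes was not tested.

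Of 24 measured factors that direct fat cell formation (29 listed), 5 rose (20.8%, against 7.67% of all genes) and 2 fell (8.33%, against 6.80%), with medians of 0.06 on day 7 and -0.09 on day 9. Mlxipl, the glucose-sensing factor ChREBP, gave 10.38 and 10.57 in knockout and 8.62 and 9.08 in wildtype (3.07-fold higher). Srebf1, the driver of lipid synthesis genes, gave 11.48 and 11.26 in knockout and 9.84 and 10.02 in wildtype (2.71-fold higher). Both factors are known to act on Fasn, Elovl6 and Acaca, and their part in the differences of those genes was not tested. Pparg gave 13.11 and 12.68 in knockout and 11.96 and 12.14 in wildtype (1.80-fold higher, adjusted p = 0.0356), and Cebpa 10.38 and 9.12 in knockout and 8.41 and 8.65 in wildtype (2.33-fold higher, adjusted p = 0.0327). The difference of Cebpa was 1.97 on day 7 and 0.46 on day 9, and with either day alone, or with the spread from all 8 arrays, no factor of the list was called. Klf5, an early adipogenic factor, was not above background in knockout and was at least 2.52-fold lower, and Klf15 fell by 0.72. Cebpb, which acts at the start of differentiation, gave 12.88 and 12.83 in knockout and 12.92 and 12.94 in wildtype.

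**Figure D4:**
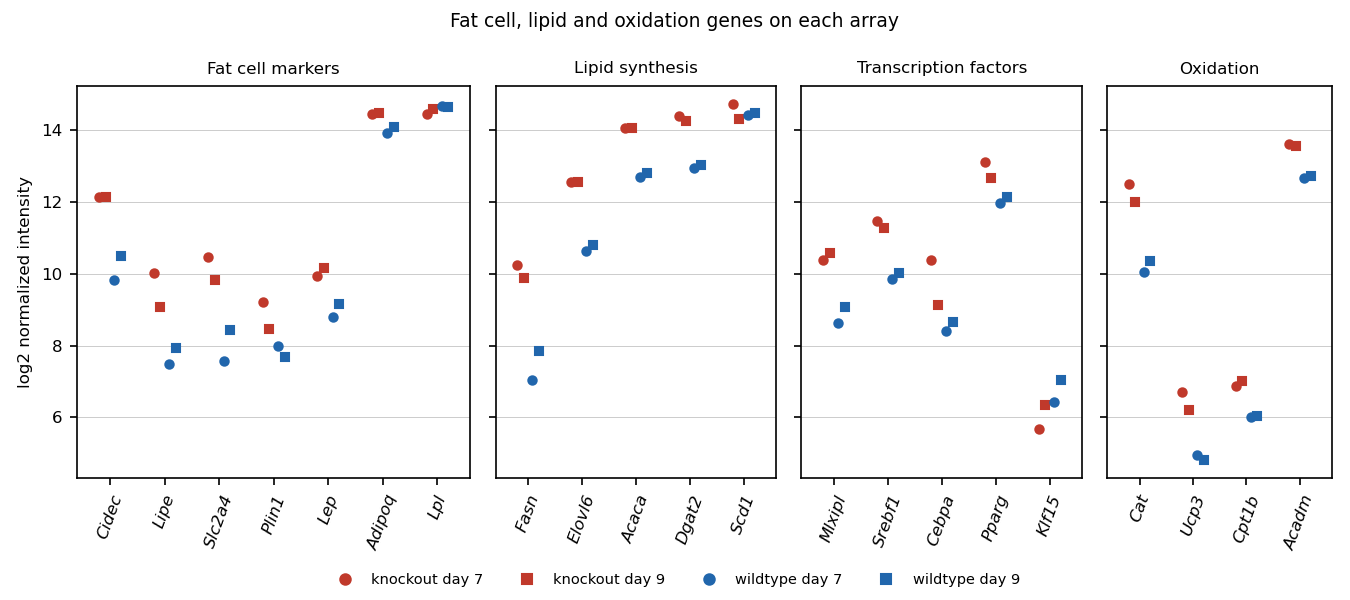
The y axis gives the log2 normalized intensity of 7 fat cell markers, 5 lipid synthesis genes, 5 transcription factors and 4 oxidation genes on the knockout (red, left) and wildtype (blue, right) arrays of day 7 (circles) and day 9 (squares). Cidec, Fasn, Elovl6 and Cat are higher in knockout on both days, whereas Lpl and Scd1 show no such gap and Adipoq, with a difference of 0.46, did not pass the test.

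For mitochondrial and peroxisomal fatty acid oxidation 30 of 34 listed genes were measured, 10 rose (33.3%, against 7.67% of all genes) and 0 fell, and the median was 0.89 on day 7 and 0.41 on day 9. Cat, the peroxisomal catalase, gave 12.51 and 11.99 in knockout and 10.04 and 10.34 in wildtype (4.17-fold higher). Acadm, the medium-chain acyl-CoA dehydrogenase, gave 13.61 and 13.55 in knockout and 12.66 and 12.71 in wildtype (1.86-fold higher), and Cpt1b, the carnitine palmitoyltransferase of muscle and brown fat, gave 6.88 and 7.02 in knockout and 6.02 and 6.05 in wildtype. Of 66 measured subunits of the respiratory chain and ATP synthase (71 listed), 7 rose and 0 fell (10.6%, against 7.67% of all genes). On both days 58 of the 66 lay above 0, with medians of 0.47 and 0.31. Over all genes the medians were -0.04 and 0.0012, and 32.2% of genes had opposite signs on the days. The count of 7 was 23 without background correction, 37 with a variance prior that was trended and robust, 11 with detection on all 4 arrays, 4 without the detection filter, 2 without the day term, 2 with the spread from all 8 arrays and 0 by limma with either day alone. In the TCA cycle and the breakdown of branched-chain amino acids 11 of 35 measured (45 listed) rose and 1 fell. Mccc1, which degrades leucine, gave 9.09 and 9.004 in knockout and 7.07 and 7.64 in wildtype, and Bcat2, the mitochondrial aminotransferase, was 2.55-fold higher. Its cytosolic counterpart Bcat1 fell by 0.86.

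The brown and beige list was mixed, with 4 higher and 2 lower of 16 measured (32 listed). For this list and the others of this paragraph, the shares over all genes were 7.67% higher and 6.80% lower. Ucp1 was not measured. Cox7a1, a respiratory subunit typical of brown fat and muscle, gave 10.93 and 10.88 in knockout and 8.998 and 9.53 in wildtype. Cox8b, another such subunit, gave 11.24 and 11.996 in knockout and 9.92 and 10.49 in wildtype. Ucp3 was above background in knockout only, and was at least 1.76-fold higher. Kng2 and Lhx8 fell, by 1.67 and 1.06. In glycolysis and glycogen metabolism 4 of 26 measured genes (37 listed) rose and 1 fell. Pygl, glycogen phosphorylase, and Hk2, hexokinase, were 2.91-fold and 2.39-fold higher. Ppp1r3b, which targets a phosphatase to glycogen, gave 8.90 and 8.88 in knockout and 5.29 and 7.72 in wildtype, so that the low wildtype array of day 7 carried most of the difference. The insulin signalling list had 25 of 32 genes measured, with 4 higher and 1 lower, and the pseudokinase Trib3, a stress-induced inhibitor of Akt, was 2.80-fold higher.

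Among progenitor and matrix genes, more fell than rose, where 6.80% of all genes fell and 7.67% rose. Of 28 measured preadipocyte and progenitor markers (35 listed) 4 fell and 1 rose, with medians of -0.27 and -0.37. Sfrp2, a Wnt antagonist, gave 11.62 and 11.96 in knockout and 13.10 and 12.96 in wildtype. Pi16 and Dpp4, markers of early adipose progenitors, fell by 1.09 and 0.92, and Mfap4, a microfibril protein, by 1.02. Dlk1, a brake on adipogenesis, rose instead, to 8.21 and 8.46 in knockout, against 7.25 and 7.22 in wildtype. Of 49 measured collagen and matrix genes (56 listed) 9 fell and 1 rose. Those that fell were cross-linking enzymes, proteases, their inhibitors and matrix proteins other than collagens: Loxl2, Loxl3, Mmp3, Mmp9, Mmp13, Timp1, Timp3, Fmod and Tnc. Loxl2, a lysyl oxidase, gave 8.76 and 8.72 in knockout and 9.89 and 10.09 in wildtype, and Timp1 gave 13.66 and 13.66 in knockout and 14.71 and 14.44 in wildtype. Mmp12, the elastase of macrophages, was the 1 that rose, to 11.66 and 11.27 in knockout, against 10.48 and 10.45 in wildtype. No gene of either list was called by limma on either day alone.

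Markers of other cells that such cultures can hold were examined in the same way. The mesothelial and epithelial list had 13 of 28 genes measured, of which 8 fell and 0 rose, with medians of -1.17 and -1.37. Apart from Csn3 these were the keratins Krt7, Krt8, Krt14 and Krt18 and the epithelial genes Cldn4, Wfdc2 and Muc1. Krt18, Cldn4, Wfdc2 and Muc1 were not above background in knockout, with lower bounds from 1.21-fold (Muc1) to 2.88-fold (Cldn4). They passed the detection filter through wildtype alone, which adds to the share of the list that fell. Krt8 gave 7.18 and 6.55 in knockout and 9.25 and 8.23 in wildtype, and Krt14 gave 7.28 and 6.65 in knockout and 9.76 and 8.10 in wildtype. The defining mesothelial markers other than Wt1 were not above background, as given above. Wt1 did not pass the test, with differences of -0.16 and 1.09 on days 7 and 9. Smooth muscle genes had 2 lower and 1 higher of 18 measured (22 listed), skeletal muscle genes 1 of each of 15 (35 listed), and endothelial genes 3 higher and 2 lower of 23 (30 listed). These counts rest on few genes, and over all genes 7.67% were higher and 6.80% lower. Lyve1, which the macrophage list also holds, was 1 of the endothelial genes that rose. In the stress lists, 3 rose and 2 fell of 35 measured antioxidant genes (42 listed), and 2 rose and 0 fell of 28 measured genes of the unfolded protein response (33 listed). These shares, 8.57% higher and 5.71% lower in the first list and 7.14% higher in the second, were near those of all genes. Mt2, a metallothionein, fell to 7.56 and 6.71 in knockout, against 9.37 and 8.83 in wildtype. Gsta3, a glutathione transferase, rose to 11.52 and 11.69 in knockout, against 9.56 and 9.98 in wildtype, and Atf3, a stress-induced factor, to 7.56 and 7.62 in knockout, against 5.87 and 6.53 in wildtype.

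The late difference was finally set against that of days 3 and 5, in 1 fit over all 8 arrays. Limma called 0 of 9758 genes, with 788 at an unadjusted p under 0.05 and a smallest adjusted p of 0.337. The same contrast gave 7 calls with a trended and robust variance prior, 4 without background correction, and 0 to 4 when 1 of the 4 days was left out (4 without day 5, 3 without day 7). Of the 710 genes higher in late knockout cultures, 469 (66.1%) were also higher on both earlier days, against 26.2% of all genes, and of the 629 lower genes 365 (58.0%) were lower then, against 25.0%. The genes with the smallest p are given as values. Fcrls differed by 0.54 and 1.65 on days 3 and 5 and by 4.80 and 5.42 on days 7 and 9. Elovl6 differed by -0.13 and 0.06 on the early days and by 1.91 and 1.75 on the late days. P2ry13, a nucleotide receptor of microglia and macrophages, differed by 0.01 and 0.03 early and 2.35 and 3.04 late, and Tmem79, a membrane protein, by -0.72 and -0.48 early and 1.61 and 1.90 late. In the other direction, Adipoq differed by 2.95 and 2.42 early and by 0.54 and 0.40 late. Car3, the carbonic anhydrase of fat cells, stood at 3.40 and 3.15 early and 0.76 and 0.40 late, and Lyz2 at 2.23 and 2.24 early and 0.45 and -0.04 late. Late intensities of Adipoq and Lyz2 lay near the highest values of the listed genes, and whether this narrowed their late differences was not tested. Ppl, which encodes periplakin, was 0.56 and 0.54 early and -1.47 and -1.22 late. By list, the median over days 3 and 5 was 1.54 for mature adipocyte markers, 1.45 for macrophage markers and 0.44 for fatty acid and triglyceride synthesis, beside late medians of 1.22, 1.92 and 1.15, and these medians were not tested against each other.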

How the data were processed

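The deposited table of values that were not normalized holds a linear bead intensity for each probe and array, and the authors deposited a detection p-value beside each, per the file headers. A second deposited table holds processed intensity values on a linear scale with a floor of 20, and the sources used here do not say how they were made. Cells, culture and array type are as given in the labels.

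For the main values, the 4 arrays of days 7 and 9 were corrected with neqc of limma 3.58.1 in R 4.3.3 (normexp on the detection p-values, offset 16, quantile normalization, log2). Probes with a detection p-value under 0.05 on at least 2 arrays and a gene name were kept, and of several probes of a gene the one with the highest mean was used. Of the probes, 23978 had 1 gene symbol and 1719 had none, and 23962 were found by gene identifier in RefSeq's GRCm38.p6 table. Limma fitted day and genotype with a moderated two-sided test, Benjamini-Hochberg adjustment over all 9251 genes, 1 residual degree of freedom and 8.20 prior ones. A gene was called at an adjusted p under 0.05 with the same sign on both days. SE is that of the moderated fit over the 2 daily differences. Where no array of a genotype was above background, the fold is a lower bound, taken against the higher of the probe's own value and the lowest signal above background on each array. The late and early differences were compared in 1 limma fit over all 8 arrays. The number of arrays limits the precision. The fits were tested on simulated data.

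The lists and the days were chosen with earlier results of these data known. Named are Irf3 and Bcl2l12, the 15 genes with the largest difference in each direction, up to 5 members of each list with the smallest p, and the genes of the late against early fit with the smallest p. List members named beyond these were picked after their values were seen. Alternatives were the background correction, the detection filter, the choice of probe, the normalization over 8 arrays, the deposited values, the day term, the variance prior, the spread from all 8 arrays and leaving out a day.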

Additional observations from a re-analysis of the deposited data

Results flagged for a closer look

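For 3 gene lists the median difference, knockout minus wildtype, had opposite signs on the days, and the difference between the days was not tested. The adipogenic transcription factors had a median of 0.0561 on day 7 and -0.0933 on day 9. Insulin signalling genes had 0.0808 on day 7 and -0.146 on day 9. Endothelial markers had -0.504 on day 7 and 0.201 on day 9.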

How the results depend on the processing

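No genome-wide setting called a gene in the direction opposite to the reported one. The counts of 710 higher and 629 lower genes were 808 and 766 without background correction, 562 and 478 without the detection filter, 724 and 712 with detection on all 4 arrays, 621 and 526 with the mean of all probes, 727 and 642 with the probe of smallest detection p, and 648 and 570 with normalization over 8 arrays. They were 396 and 345 without the day term, 996 and 948 with a trended and robust variance prior, 320 and 255 with the spread from all 8 arrays, and 0 and 0 on the deposited values by limma (1934 at an unadjusted p under 0.05). Without the genes at the deposited floor, a choice made after seeing the data, they were 507 and 340. Leaving out a day gave 120 to 149 higher and 68 to 93 lower genes. The counts at 2-fold on both days were 150 and 102 without background correction; the counts at 1.5-fold were 675 and 608, and at 3-fold 129 and 75. The late against early fit gave 4 calls without background correction, 7 with the trended and robust prior and 0 to 4 with a day left out. Of 179 named genes, 159 were called, and of these 110 lost the call without day 7 and 94 without day 9. Among the 32 genes named first, those lost were Bcl2l12, Pld4 and Mup20 without day 7 and Arg1 without day 9. Irf3 passed without background correction (difference -0.59, adjusted p = 0.0332). Of 37 list medians 3 changed sign: lymphocyte markers on the deposited values and with detection on all 4 arrays (0.244 and 0.285), and, on the deposited values, adipogenic transcription factors (0.0697) and endothelial markers (0.0202). The cause of these shifts was not tested. The labels give no replicate numbers; knockout and wildtype were paired by day, since day was the block in the fit reported here, and the counts without that pairing are the 396 and 345 given above.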

Other observations

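The change of the difference between the days has no replicate and is given as values. The difference of Arg1 was 4.46 higher on day 9 than on day 7. Rab1a, a GTPase of vesicle traffic, gave 7.60 and 9.77 in knockout on days 7 and 9, against 10.28 and 10.02 in wildtype, so that the low knockout array of day 7 stood apart. Sox17, a factor of endothelium and endoderm, gave 6.30 and 7.42 in knockout and 7.55 and 6.32 in wildtype, and its difference changed sign between the days. Hsd17b1, an enzyme of oestrogen synthesis, did the same, with 6.60 and 7.17 in knockout and 7.48 and 5.92 in wildtype. In the other direction, Ppp2r1b, a scaffold subunit of a phosphatase, gave 8.08 and 6.70 in knockout and 6.30 and 6.85 in wildtype. Lpgat1, a lysophospholipid acyltransferase, gave 9.29 and 8.54 in knockout and 7.81 and 8.82 in wildtype. Of the genes in this paragraph, limma called only Arg1.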
